A study of Rattus norvegicus with 112 samples.

Results

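Primary cortical neurons of the rat that had been in 1 mM NMDA for 180 min (3 arrays) were compared with control neurons of the same run that received no NMDA (3 arrays). The 6 arrays were those whose labels give a 180 min or a control treatment in the continuous NMDA experiment, out of 18 arrays in that experiment and 112 in the series. NMDA is a synthetic compound that opens a class of glutamate receptors named after it, and it stayed on the cells until harvest. The other groups of the experiment, used here for the time course and for the shared estimate of the spread, had 1 mM NMDA for 10, 30, 60 or 360 min, with 3 arrays each numbered 2, 3 and 4 in the titles. Each array was hybridized with RNA from cultured cerebral cortex, and the strain, the age of the cultures and the share of glia are not stated in the labels. Nothing in the labels says that the 3 arrays of a group came from separate cultures, so the p-values measure the spread between these arrays, which may be technical.

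NMDA receptors are cation channels that open when glutamate binds while the membrane is depolarized, and they let calcium into the neuron. Calcium entry activates kinases that phosphorylate transcription factors already present, such as CREB and the partners of serum response factor. Within minutes these factors turn on the immediate early genes, many of which encode further transcription factors, and those in turn act on later genes such as the neurotrophin gene Bdnf. Long or strong activation of NMDA receptors is toxic to neurons, a process known as excitotoxicity.

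Neurons in NMDA for 180 min had higher Fos and Nr4a1 mRNA than control neurons. These were the 2 genes that passed in the main fit, which did not use the array numbers. With the array number as a block, 4 genes passed, with Junb and Bdnf added. Fos encodes a subunit of the AP-1 transcription factor, and Nr4a1 encodes an orphan nuclear receptor induced by depolarization. Of 884 tested probe sets, 4 rose and 0 fell (limma, Benjamini-Hochberg adjusted p under 0.05), which is 0.452% of those tested. The 4 were all 3 probe sets of Fos and 1 of the 2 probe sets of Nr4a1. At an unadjusted p under 0.05 there were 22 probe sets above and 13 below control. The numbers 2, 3 and 4 paired the arrays across the groups. With the number as a block in the fit 8 probe sets passed (0.905%), all of them higher, and these held the 4 and added Nr4a1 (U17254_at), Junb, Bdnf (D10938exon_s_at) and U75397UTR#1_s_at, a probe set that the annotation did not pair with a gene. The count was 0 without any 1 of the 3 control arrays or NMDA arrays 2 and 4, and 11 without NMDA array 3. It was 12 without array 3 of the 360 min group, which enters the shared spread. That 360 min array stood apart, with the lowest median correlation with the other arrays of the run, 0.786. Those 12 held the 4 and added Nr4a1 (U17254_at), Junb, Fosl2, both tested probe sets of Nr4a3, Bdnf (rc_AI030286_s_at) and 2 probe sets with no gene. It was also 0 under median centring, under quantile normalization, without an intensity trend in the variance, and with only these 2 groups in the fit.

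**Figure D1:**
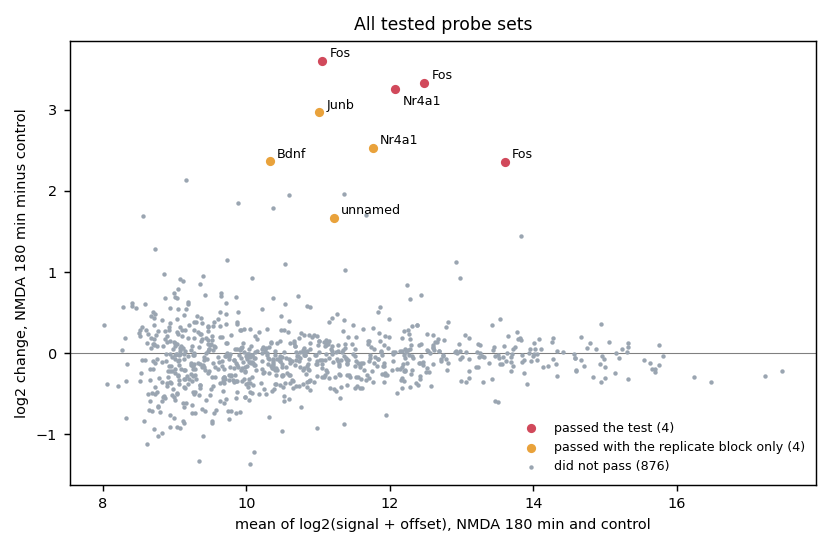
Log2 change of the 884 tested probe sets (NMDA 180 min minus control) against their mean log2 level over both groups. The 4 probe sets that passed the test (red) and the 4 that passed with the replicate block only (orange) are all above 0, and the lowest change of any tested probe set was -1.37.

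Changes are differences of log2(signal + 86), in which 86 was the 10th percentile of the positive signals of the run, so they understate the change of dim probe sets. Over all tested probe sets the median change was -0.07, and 39.4% were above and 60.4% below 0. All 3 NMDA arrays were above all 3 control arrays at 26 probe sets (2.94%) and below them at 40 (4.52%). In bulk RNA such as this, fewer cells of a type and less RNA per cell cannot be told apart.

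Upstream sequences are shown for 4 early response genes, because elements that activity-regulated factors bind can be looked for in them. Of the 4, Nr4a1 passed the test at 180 min, Junb passed with the block only, and Egr1 and Crem did not pass. The 160 bases before the annotated start are given 5′ to 3′ on the gene's strand, from RefSeq on build GRCr8. Capitals mark the cyclic AMP response element TGACGTCA, which CREB binds, or its half-site TGACG on either strand, and the CArG boxes, which serum response factor binds. The genes were picked after their letters were seen. Of 9 genes looked up, 6 had an entry.
Nr4a1, chr7:134259978-134260137, plus strand: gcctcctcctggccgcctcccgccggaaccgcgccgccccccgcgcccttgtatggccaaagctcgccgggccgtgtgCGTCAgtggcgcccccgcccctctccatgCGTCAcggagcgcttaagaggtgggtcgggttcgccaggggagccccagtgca
Junb, chr19:40080966-40081125, plus strand: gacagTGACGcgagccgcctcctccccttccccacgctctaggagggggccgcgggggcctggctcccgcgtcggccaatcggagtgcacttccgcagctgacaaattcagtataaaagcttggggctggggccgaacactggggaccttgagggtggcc
Egr1, chr18:26736918-26737077, plus strand: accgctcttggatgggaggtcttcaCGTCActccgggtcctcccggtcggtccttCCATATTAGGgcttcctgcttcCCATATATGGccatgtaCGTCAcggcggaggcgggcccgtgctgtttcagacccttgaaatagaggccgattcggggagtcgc
Crem, the second of 3 listed starts, chr17:58984637-58984796, plus strand: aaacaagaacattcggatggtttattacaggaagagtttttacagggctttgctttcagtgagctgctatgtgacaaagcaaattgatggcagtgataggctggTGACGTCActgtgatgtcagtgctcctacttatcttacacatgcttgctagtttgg

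Nr4a1 had 2 half-sites, Junb 1, and Egr1 2 half-sites with 2 CArG boxes. In the Crem window shown the full element lay 56 to 49 bases before the start and was read as 2 overlapping half-sites. The third listed start of Crem also had a full element, 35 to 28 bases before it, and the first had 1 half-site and no full element. Among 33469 promoters of the same length, 1.38% held the full element, 13.9% a half-site and 0.917% a CArG box, on either strand. Fosl2 had none of these in its window. Bdnf had 6 listed starts, and 1 of them had a half-site in its window. A match describes these letters only.

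The AP-1 genes encode the Fos and Jun proteins that pair to form the AP-1 transcription factor. Fos (X06769cds_at) had a signal of 13713, 2039 and 13941 on NMDA arrays 2, 3 and 4, against 432, 890.2 and 367 on control arrays 2, 3 and 4. All NMDA arrays were above all control arrays, and the gap was smallest for the arrays numbered 3. The change was 3.60 (SE 0.71, adjusted p = 0.0409 by limma), and with the replicate block the adjusted p was 0.0014. The other 2 Fos probe sets changed by 3.33 (X03347cds_g_at, adjusted p = 0.0438) and 2.36 (X06769cds_g_at, adjusted p = 0.0409), again with no overlap between the groups. Fos was also bright, since its brightest probe set (X06769cds_g_at) averaged 33511 ± 19648 in NMDA and 5464 ± 1107 in control (SD, n = 3 each).

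Junb, whose protein pairs with Fos, had a signal of 9403, 1726 and 11196 on NMDA arrays 2, 3 and 4, against 679.9, 819 and 499 on the control arrays. Every NMDA array was above every control array. The change of 2.97 (SE 0.82) passed only with the replicate block (adjusted p = 0.0165, against 0.218 without it). Fosl2, which encodes the Fos relative Fra-2, had 4095, 1483 and 4251 on the NMDA arrays and 641, 468 and 1122 on the control arrays. Its groups did not overlap, and its change of 1.96 (SE 0.65) did not pass (adjusted p = 0.424, and 0.121 with the block, but 0.015 without array 3 of the 360 min group). Jun, the namesake of the family, had 2350, 402 and 1607 in NMDA against 357, 1179 and 246 in control, with NMDA higher at numbers 2 and 4 and lower at number 3. Jund changed by 0.38 (SE 0.85). Fosl1 was too dim for the test, at 144, 126 and 199.7 in NMDA and 83.5, 113 and 81.7 in control.

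**Figure D2:**
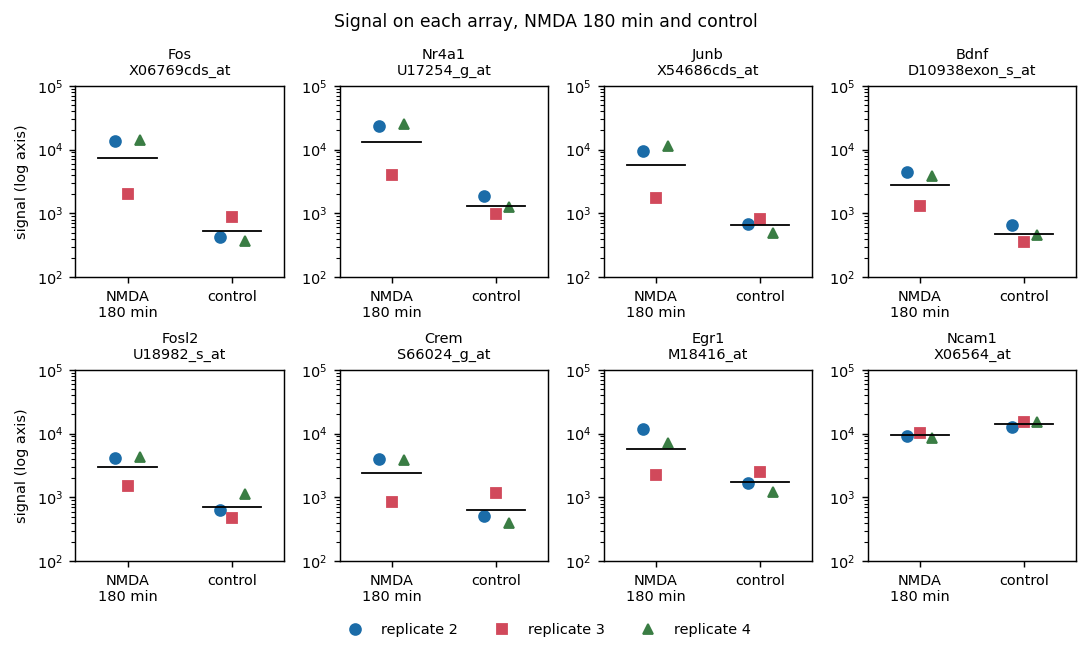
Signal (log axis) of 8 probe sets on every array, with NMDA 180 min on the left and control on the right of each panel, and a line at the back-transformed mean of the log2 values. Fos, Nr4a1, Junb, Bdnf and Fosl2 are higher on all 3 NMDA arrays, Crem and Egr1 overlap at replicate 3, and Ncam1 is lower on all 3 NMDA arrays without passing the test.

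The orphan nuclear receptors of the NR4A family act without a known natural ligand. Nr4a1 (U17254_g_at) had 22992, 3952 and 25207 on NMDA arrays 2, 3 and 4, against 1848, 971 and 1236 on the control arrays. The lowest NMDA array was above the highest control array, and the change was 3.26 (SE 0.67, adjusted p = 0.0409 by limma, and 0.000912 with the block). Its second probe set (U17254_at) changed by 2.54 (SE 0.64) and passed only with the block (adjusted p = 0.00353, against 0.122). Nr4a3, which encodes the relative NOR-1, had 9726, 9867 and 15226 in NMDA and 4139, 6806 and 4824 in control at rc_AI176710_at. Here the array numbered 3 was not the lowest of the NMDA group. That change was 1.13 (SE 0.34, adjusted p = 0.3) and that of X86003_at was 1.96 (SE 0.65, adjusted p = 0.424), neither of which passed. Without array 3 of the 360 min group both did, at an adjusted p of 0.0327 and 0.0169. The third Nr4a3 probe set was too dim for the test.

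Egr1 encodes a zinc finger transcription factor, and its mRNA is a common marker of recent neuronal activity. At its brightest probe set (AF023087_s_at) it had 42112, 10689.9 and 30481 in NMDA, against 8359, 12615 and 6303 in control. The groups overlapped, because NMDA array 3 lay below control array 3. Its 4 probe sets changed by 1.71, 1.45, 1.10 and 0.93, and none passed (adjusted p between 0.3 and 0.998). U75397UTR#1_s_at, which has no gene in the annotation, had 7201, 1759 and 5576 in NMDA and 1282, 1345 and 1126 in control. It changed by 1.67 (SE 0.40) and passed only with the block (adjusted p = 0.0165, against 0.108).

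Crem encodes activators and repressors of cyclic AMP response elements, among them the inducible repressor ICER, which is made from a start inside the gene. Crem (S66024_g_at) had 3977, 845 and 3861 in NMDA against 509.8, 1170.1 and 396 in control. It was higher in NMDA at numbers 2 and 4 and lower at number 3, and its change of 1.79 (SE 0.65) did not pass (adjusted p = 0.649).

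The early response transcription factors, the list these genes came from, had 10 of 23 genes on the array and 9 tested. By limma 2 of the 9 rose and 0 fell, and 3 rose with the block. All 9 changes were above 0 with a median of 1.79, and 5 of the 9 had all NMDA arrays above all control arrays, against 2.94% of all tested probe sets. The list was drawn up with earlier results of these data known, so its direction is not independent evidence.

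**Figure D3:**
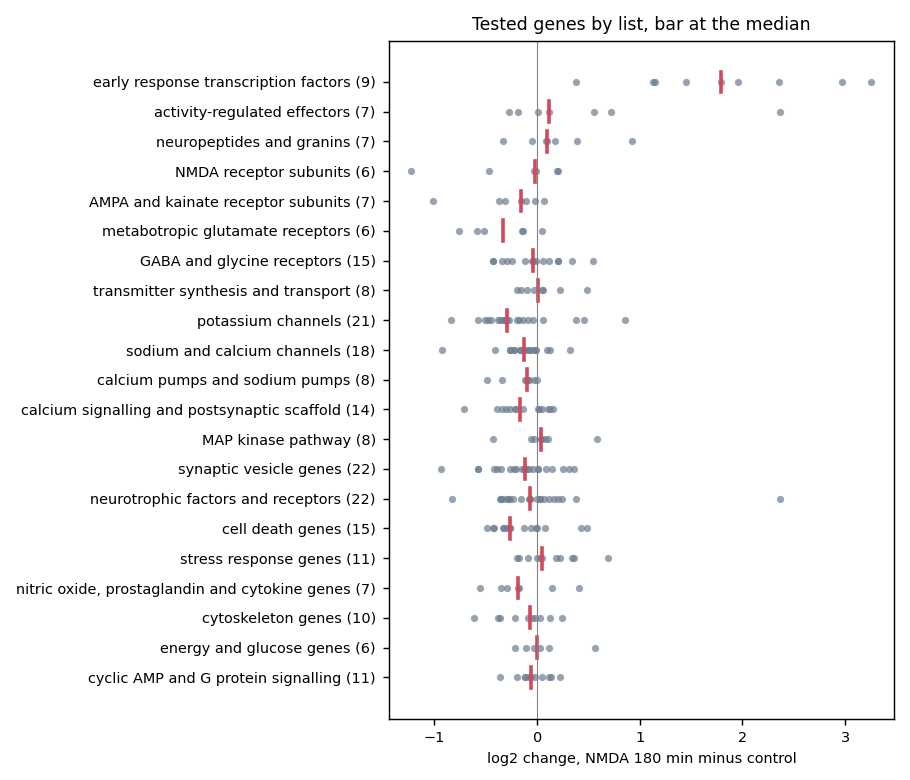
Log2 change (NMDA 180 min minus control) of the tested genes of 21 lists, one point a gene at its brightest probe set, with a bar at the median of the list. The early response transcription factors lie between 0.38 and 3.26, and in the other lists Bdnf at 2.37 is the only gene above 1.

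Bdnf encodes brain-derived neurotrophic factor, a secreted survival and plasticity factor. Its gene has several starts, each spliced to a shared coding exon, and 7 of its probe sets were tested. Bdnf (D10938exon_s_at) had 4433, 1311 and 3807 on NMDA arrays 2, 3 and 4, against 667, 352 and 458 on the control arrays. The groups did not overlap, and the change of 2.37 (SE 0.66) passed only with the block (adjusted p = 0.0165, against 0.218). A second probe set (rc_AI030286_s_at) had 1220.1, 531 and 2056 in NMDA and 266, 415 and 29.7 in control, a change of 2.14 (SE 0.54) that did not pass (adjusted p = 0.122, and 0.0343 without array 3 of the 360 min group). The third highest (X67108_at) changed by 1.70 (SE 0.54), also without passing. The other 4 changed by between -0.13 and 0.22, at control means between 282 and 1037, so the probe sets of the gene disagreed.

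The other activity-regulated effector genes did not pass. Their list had 7 of 23 genes tested, of which 0 passed by limma and 1, Bdnf, passed with the block. With each gene at its brightest probe set, Bdnf was also the 1 gene at an unadjusted p under 0.05. Their median change was 0.12. Vgf, a secreted peptide precursor, had 9854, 4919 and 7036 in NMDA against 4901, 3934 and 3894 in control. Every NMDA array was above every control array, but the change of 0.72 (SE 0.35) had an adjusted p of 0.998. Nptx2, a secreted pentraxin that clusters AMPA receptors, changed by 0.12 (SE 0.32) at S82649_s_at. Plat, a secreted protease, changed by 0.55 (SE 0.33). Ptgs2, the inducible cyclooxygenase, changed by -0.19 (SE 0.43), and Syt4, a vesicle protein, by 0.01 (SE 0.32) at its brighter probe set. Igf1, a growth factor, had 3 tested probe sets with changes of 1.29, 0.38 and -0.27. The first (M15481_g_at), not its brightest, had no overlap and an unadjusted p of 0.0315 in limma's fit (adjusted p = 0.998).

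Neuropeptide precursors and granins gave 7 tested genes with a median change of 0.10 and 0 past the threshold by limma, at either p. Sst, the somatostatin precursor made by a class of inhibitory neurons, was the highest of them. It had 18197, 4201 and 17402 in NMDA against 11967, 2245 and 7001 in control. The array numbered 3 was the lowest in both groups, and each NMDA array was above the control array of the same number. Its change of 0.93 (SE 1.03) had an adjusted p of 0.998, and 0.126 with the block.

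Glutamate receptor genes, which encode the proteins that NMDA and glutamate act on, gave 0 calls by limma. The 6 tested NMDA receptor subunits had a median change of -0.02. Grin1, the obligatory subunit, changed by 0.20 (SE 0.38) at S39221_g_at, and Grin2b, the subunit prevalent in young cortical neurons, by -0.01 (SE 0.27). Grin2a, the subunit that becomes prevalent as cortical neurons mature, had 398, 544 and 1150.3 in NMDA against 943, 2148 and 2004 in control at AF001423_at. Each NMDA array was below the control of its own number but the groups overlapped, and the change of -1.22 (SE 0.58) did not pass (adjusted p = 0.998). The second Grin2a probe set, D13211_s_at, was dimmer and changed by -0.09 (SE 0.59). The subunits Grin2c and Grin2d had 2 tested probe sets each, with changes of -0.03 and -0.02 for Grin2c and of 0.21 and -0.13 for Grin2d. Grin3a, a subunit that lowers calcium entry, had 3, with changes of -0.47, -0.61 and -0.74. Of 7 AMPA and kainate subunits 0 passed, 1 had an unadjusted p under 0.05, and the median was -0.15. The lowest was the kainate subunit Grik3, at -1.02 (SE 0.47). The 6 metabotropic receptors had 0 at an unadjusted p under 0.05 and a median of -0.33. Grm3, a receptor that inhibits cyclic AMP synthesis, averaged 2980 ± 439 in NMDA and 5213 ± 1559 in control (SD, n = 3 each), with no overlap and a change of -0.76 (SE 0.40).

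Ion channels, inhibitory receptors, vesicle genes, pumps and transmitter genes gave 0 calls by limma and 0 at an unadjusted p under 0.05. Of 21 tested potassium channel genes 17 were below 0, with a median of -0.30, and of 18 sodium and calcium channel genes 15 were below 0, with a median of -0.12. Both medians were below 0 under median centring and quantile normalization, and 60.4% of all tested probe sets were below 0. Over the settings run, the potassium channel median lay between -0.37 and -0.14. The sodium and calcium channel median lay between -0.19 and -0.01. Median centring alone moved the median of all tested probe sets from -0.07 to 0.03. The potassium channel genes ran from -0.84 for Kcnj10 to 0.85 for Kcnj4, both of which encode inward rectifiers. Cacnb2, a calcium channel beta subunit, was the lowest of the other list at -0.92 (SE 0.58). The 15 GABA and glycine receptor genes had a median of -0.04, and the 22 synaptic vesicle genes had a median of -0.12 with Syt7 lowest at -0.93 (SE 0.46). The 8 genes of calcium and sodium pumps had a median of -0.10, and the 8 of transmitter synthesis and transport had 0.01.

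Genes of the calcium and kinase pathways below the receptor also gave 0 calls by limma and 0 at an unadjusted p under 0.05. The 14 genes of calcium signalling and the postsynaptic scaffold had a median of -0.17, with Creb1, which encodes CREB itself, lowest at -0.72 (SE 0.45). The 8 MAP kinase pathway genes had a median of 0.04. Dusp5, a phosphatase that inactivates ERK, averaged 2172 ± 176 in NMDA and 1429 ± 251 in control (SD, n = 3 each), with no overlap and a change of 0.59 (SE 0.30, adjusted p = 0.998). The 11 genes of cyclic AMP and G protein signalling had a median of -0.06.

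Genes tied to cell death and stress gave 0 calls by limma after 180 min, and 0 at an unadjusted p under 0.05 when each gene stood for its brightest probe set. The 15 tested cell death genes had a median of -0.27, with 11 below 0, as were 60.4% of all tested probe sets. Over the settings run that median lay between -0.27 and -0.10. Bcl2l11, which encodes the death-promoting protein Bim, averaged 1183 ± 154 in NMDA and 1603 ± 78.7 in control (SD, n = 3 each), with no overlap and a change of -0.42 (SE 0.28). Casp2, an initiator caspase, had 643.5, 763 and 374 in NMDA against 1289.6, 1732 and 1884 in control at AF025671_s_at. That was the lowest change of all tested probe sets, -1.37 (SE 0.50), with no overlap and an adjusted p of 0.658 (unadjusted p = 0.0141). The brighter Casp2 probe set, U77933_at, changed by -0.43 (SE 0.34). The 11 stress genes had a median of 0.05, with Hspa1a, the inducible heat shock protein, highest at 0.69 (SE 0.50). The 7 nitric oxide, prostaglandin and cytokine genes had a median of -0.19, the 6 energy and glucose genes had 0.00 (-0.002), and the 22 neurotrophic factors and receptors, with Bdnf among them, had -0.07.

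The probe sets with the smallest p among those below control also held cytoskeleton and adhesion genes, none of which passed. Ncam1, a cell adhesion molecule of neurons, had 9316, 10049 and 8674 in NMDA against 12632, 15202 and 15057 in control. The groups did not overlap, and the change of -0.61 (SE 0.19) had an adjusted p of 0.342, and 0.0748 with the block. With the block and without array 3 of the 360 min group its adjusted p was 0.0416, and it was the 1 probe set called lower there. Map2, a microtubule protein of dendrites, had 5 tested probe sets with changes of -0.96, -0.92, -0.79, -0.49 and -0.05, the lowest 3 of them at an unadjusted p of 0.0275, 0.036 and 0.0457 in limma's fit. At the lowest of them (X17682_s_at) it had 1553, 1037 and 516 in NMDA and 2266, 1675 and 1897 in control. Mapt, the axonal microtubule protein tau, had 34272, 43949.9 and 32313 in NMDA against 45244, 47228 and 43999 in control, a change of -0.32 (SE 0.15) that did not pass (unadjusted p = 0.0451 in limma's fit). At their brightest probe sets the 10 cytoskeleton genes, with 0 at an unadjusted p under 0.05, had a median of -0.07, the same as all tested probe sets. Other low values were those of Thra, a thyroid hormone receptor, at -0.87 (SE 0.33), Ptger3, a prostaglandin receptor, at -1.02 (SE 0.43), Rasa2, a Ras GTPase activator, at -0.67 (SE 0.30), Nos1ap, an adaptor of the neuronal nitric oxide synthase, at -0.72 (SE 0.32), and Fez2 at -1.13 (SE 0.48). Slc2a3, the neuronal glucose transporter, was among the higher values at 0.95 (SE 0.45) at D13962_at. Its brighter probe set, D13962_g_at, changed by 0.56 (SE 0.43).

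Markers of neurons and of astrocytes both passed the signal filter. Of 18 neuron markers 11 were measured and all 11 passed the filter, as did all 6 measured astrocyte markers. The filter kept 884 of 1263 probe sets, and each marker stood for its brightest probe set, so passing it does not single out a cell type. By limma 0 markers of any list passed the test at their brightest probe sets, and Ncam1 was the 1 marker at an unadjusted p under 0.05 there. Map2, also a neuron marker, had lower values at dimmer probe sets, as given above. The neuron markers' summed signal was 115026 to 132820 in NMDA and 115573 to 141036 in control. The 6 measured astrocyte markers of 11 summed to 35489 to 38567 in NMDA and 30931 to 39361 in control. The 6 measured oligodendrocyte markers of 12 summed to 7713 to 10758 in NMDA and 6657 to 11264 in control. Endothelial and meningeal markers gave 2 measured genes of 13, at sums of 2663 to 3870 in NMDA and 2437 to 3551 in control. The 1 measured microglia marker of 10 did not pass the filter, at 243 to 310.1 in NMDA and 237 to 632 in control. The ranges overlapped for each list, none was at 0, and the medians of the tested lists were -0.09 for neurons, 0.04 for astrocytes, 0.04 for oligodendrocytes and 0.05 for endothelial and meningeal cells. The part of these cells in the results was not tested.

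The arrays numbered 3 had a smaller response than those numbered 2 and 4. Over the 16 tested probe sets of early response transcription factors, the NMDA array was above the control of its number at 16 of 16 for number 2, 10 of 16 for number 3 and 16 of 16 for number 4. The median differences were 2.65, 0.61 and 2.59. Over all 884 tested probe sets 42.9%, 48.3% and 38.0% were above the control of their number. Number 3 was also lowest at the neighbouring times, with medians of 2.52, 1.27 and 2.75 at 60 min and of 2.59, 0.38 and 2.75 at 360 min for numbers 2, 3 and 4. The 0.38 comes from the 360 min array that stood apart, with a median signal of 1114 and a median correlation with the other arrays of 0.786. The ratio of 3′ to 5′ signal for Gapdh, a measure of RNA length, was 1.26, 1.71 and 1.41 on NMDA arrays 2, 3 and 4 and 1.29, 1.75 and 1.45 on the control arrays. It was highest at number 3 in both groups. At 60 min the ratio was 1.47, 1.41 and 1.44 for numbers 2, 3 and 4, lowest at number 3. At 360 min it was 1.64, 2.25 and 1.58, highest at number 3. The part of this ratio in the smaller response was not tested. Without the arrays numbered 3 in every group 19 probe sets passed by limma, all higher, and 19 with the block, 18 of them higher. Without those numbered 2 the counts were 0 and 2, and without those numbered 4 they were 0 and 0.

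**Figure D4:**
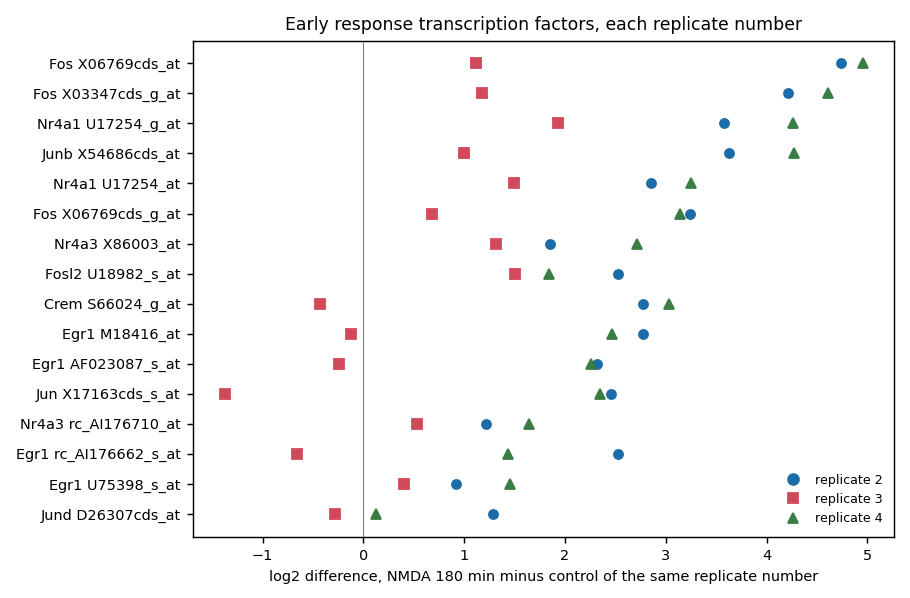
Log2 difference between NMDA 180 min and the control array of the same number for the 16 tested probe sets of early response transcription factors. Numbers 2 (circles) and 4 (triangles) are above 0 at all 16, and number 3 (squares) at 10.

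By group means over the 3 arrays, the time of the highest signal varied between genes and probe sets. No probe set passed for 180 min against 60 or 360 min, and a difference in timing between genes was not tested. Egr1 (M18416_at) averaged 1785 in control and 2429, 9480.2, 12601, 7091 and 4303 after 10, 30, 60, 180 and 360 min. At this probe set it was highest at 60 min, and 180 min minus 60 min was -1.04 (SE 0.51), which did not pass. The Egr1 probe sets AF023087_s_at and rc_AI176662_s_at were also highest at 60 min. U75398_s_at was highest at 30 min, at 1688 against 1609 at 60 min. Fos (X06769cds_at) averaged 563 in control and 1341, 3916, 6129, 9898 and 7873 at those times, highest at 180 min. Nr4a1 (U17254_g_at) averaged 1352 in control and 1601, 3943, 13688, 17384 and 11897, and Junb averaged 666 in control and 2038, 3257, 4310.2, 7442 and 4016. At these probe sets both were also highest at 180 min, and neither differed past the threshold between 60 and 180 min. The other Nr4a1 probe set (U17254_at) was highest at 60 min, at 9922 against 9729.5 at 180 min. For number 3 the signals of Fos, Nr4a1 and Junb were 3127, 5481 and 2547 at 60 min, above 2039, 3952 and 1726 at 180 min. The standard deviations at 180 min were large because array 3 was low, at 6806 for Fos, 11685 for Nr4a1 and 5030.2 for Junb.

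Fosl2, Crem (S66024_g_at) and both tested Nr4a3 probe sets had group means at 180 and 360 min above those at all earlier times. So did Bdnf at D10938exon_s_at, rc_AI030286_s_at and X67108_at. The other tested Bdnf probe sets did not, as with S71196mRNA_s_at, at 540 after 180 min and 555 in control. Among the probe sets with such means, 180 min against control passed for Bdnf (D10938exon_s_at) only, and with the block. Bdnf (D10938exon_s_at) averaged 493 in control and 1272, 644, 872, 3184 and 4463 after 10, 30, 60, 180 and 360 min. Its mean at 10 min rested on 1 of the 3 arrays. Fosl2 averaged 744 in control and 371, 316, 1134, 3276 and 5137, with all 3 arrays below the control of their number at 10 and 30 min. Crem (S66024_g_at) averaged 692 in control and 811, 592, 873, 2894 and 3567, with number 3 below its control at 180 and 360 min. Nr4a3 (rc_AI176710_at) averaged 5257 in control and 5269, 5295, 6322, 11606 and 12334. From 60 to 180 min these changed by 1.69 (Bdnf), 1.34 (Fosl2), 1.40 (Crem) and 0.85 (Nr4a3), with unadjusted p of 0.0201, 0.0547, 0.0454 and 0.0222 in limma's fit and an adjusted p of 1 each. The Nr4a3 probe set X86003_at averaged 1255 in control and 1319, 3992, 5290, 5507 and 6616.5 after 10, 30, 60, 180 and 360 min. It was already above control at 30 and 60 min, and from 60 to 180 min it changed by 0.145 (SE 0.65). At 360 min its number 3 was below the control of that number.

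**Figure D5:**
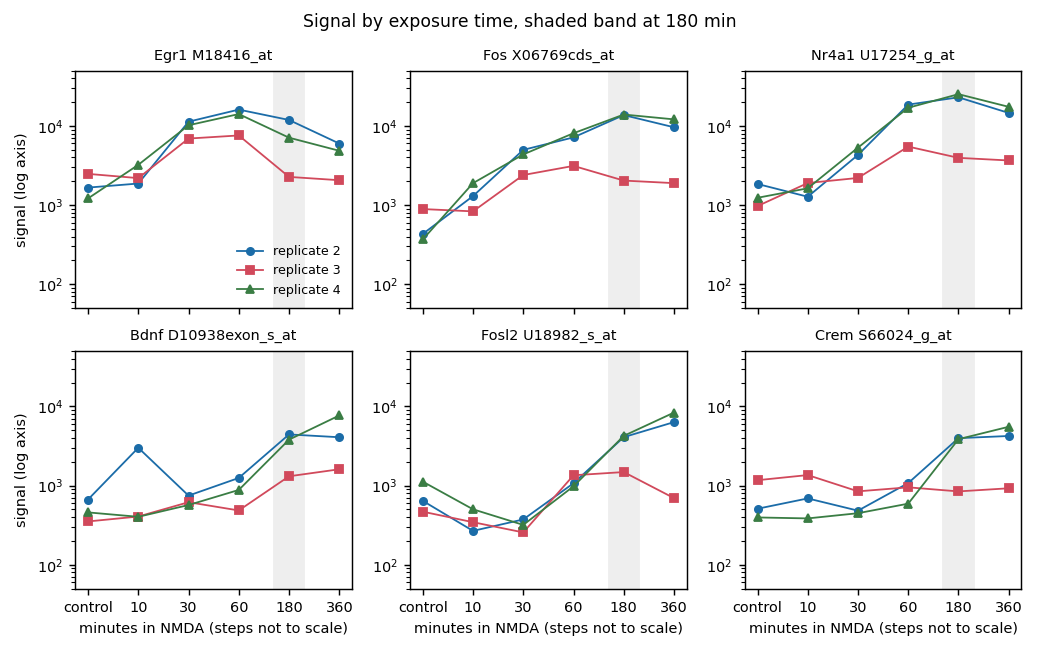
Signal (log axis) of 6 probe sets by minutes in NMDA, one line for each array number, with 180 min shaded. Egr1 is highest at 60 min, Fos and Nr4a1 at 180 min in numbers 2 and 4, and Bdnf, Fosl2 and Crem are higher from 180 min on in numbers 2 and 4.

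Direct comparisons of 180 min with the other times gave few calls by limma. Against 30 min 0 of 884 passed (0%), while 20 had an unadjusted p under 0.05. Under the block 2 passed (0.226%). Those 2 were Fosl2, at 4095, 1483 and 4251 after 180 min against 374, 256 and 319 after 30 min, and Sst, at 18197, 4201 and 17402 against 7868, 1402 and 7783. With the block Fosl2 was higher by 2.94 (SE 0.53, adjusted p = 0.0366) and Sst by 1.29 (SE 0.26, adjusted p = 0.0473). Each 180 min array was above the 30 min array of the same number for both genes. Without array 3 of the 360 min group the count against 30 min was 2 without the block and 4 with it. Against 60 min 0 passed (0%), while 9 had an unadjusted p under 0.05. Against 360 min 0 passed (0%), while 52 did, and the block gave 0 for both times.

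Other experiments of the series give values for the same probe sets in other cultures and runs, described here without a test. After pulses of 10, 30 and 60 min in 1 mM NMDA with harvest 24 h after washout (4 arrays each, and 4 controls), Fos (X06769cds_at) was 2.68, 2.41 and 2.33 above its own controls on the log2 scale. Nr4a1 (U17254_g_at) was 2.76, 2.22 and 2.44 above, Junb 1.75, 1.52 and 1.39, and Bdnf (D10938exon_s_at) 3.12, 2.68 and 2.90. After 60 min in NMDA in a separate experiment (3 arrays against 3 controls), Fos was 2.99 above, Nr4a1 2.45, Junb 2.19 and Bdnf 0.66. Harvest times and cultures differ from those of the 180 min group, so these differences are set side by side only.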

How the data were processed

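The values were intensity on a linear scale, deposited by the authors as a series table. The summarizing software, not given in the sources used here, is unknown. The trimmed mean of each array of this run, leaving out 2% at either end, was 2510 to 2513, so no further scaling was done. Of 1322 probe sets 59 controls were left out. Of the 1263 left, 1137 had 1 gene in the platform annotation, 8 several and 118 none, for 720 genes. Values were turned into log2 after adding 86, and probe sets with a run mean at or below the 30th percentile were left out, leaving 884. A mean per group was estimated over all 18 arrays by limma 3.58.1 under R 4.3.3 (intensity trend, 2-sided, Benjamini-Hochberg over 884, threshold 0.05). The number of arrays limits the precision.

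Array numbers from the titles paired the samples: residuals of NMDA 180 min and control correlated at 0.42, 0.46 and 0.18 for numbers 2, 3 and 4, and at most 0.09 for unequal numbers. The fit with the number as a block was an alternative.

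Named were all probe sets past the threshold with or without the block or against another time, the 12 highest and 12 lowest by moderated t among those with 1 gene, list members at an unadjusted p under 0.05, and all NMDA receptor subunits, early response transcription factors and effectors. Values named beyond that rule (Grm3, Kcnj10, Kcnj4, Cacnb2, Syt7, Creb1, Dusp5, Bcl2l11, Hspa1a, Map2 at its other probe sets, Casp2 U77933_at, Slc2a3 D13962_g_at) were chosen after they were seen. The members, the 26 lists and the tests were chosen with earlier results of these data known. A list gene stands for its brightest probe set. The fit was checked on simulated data with independent arrays. These had no shared effect of the array number and no outlying array, so the check does not cover either.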

Additional observations from a re-analysis of the deposited data

Results flagged for a closer look

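Fosl2 and Sst were past the threshold in the direct comparison of 180 min with 30 min in NMDA when the array number was a block in limma's fit. Fosl2 (U18982_s_at) was higher at 180 min by 2.94 (SE 0.53, adjusted p = 0.0366), and Sst (M25890_at) by 1.29 (SE 0.26, adjusted p = 0.0473). Without the block the adjusted p was 0.259 for Fosl2 and 1 for Sst. Both genes were higher at 180 min in 3 of 3 pairs of arrays.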

How the results depend on the processing

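The count of 4 probe sets past the threshold against control was 4 under the other offsets and under no filter and a filter at the median. It was 0 with median centring, 0 with quantile normalization, 0 with only the groups compared and 0 with no variance trend. With the replicate block it was 8, and with the block and without array 3 of the 360 min group it was 16, of which 15 were higher and 1, Ncam1, lower. Leaving out 1 array at a time gave 0 to 12. Leaving out an array number in every group, an alternative chosen after the data were seen, gave 0, 19 and 0 for numbers 2, 3 and 4, and 2, 19 and 0 with the block. Against 30 min the count of 0 was 2 with the block, 4 with the block and without that 360 min array, and 0 to 2 when 1 array was left out. Against 60 and 360 min it was 0 in each setting run. For Fos (X06769cds_at) the change was between 2.93 and 4.84 over 23 alternatives and passed in 10, and for Nr4a1 (U17254_g_at) it was between 2.76 and 4.12 and passed in 11. Lost calls under another scaling were not traced, and the cause was not tested. No called value changed sign. The median of the early response transcription factors was between 1.17 and 2.44. The median change of all tested probe sets was -0.07, 0.03 with median centring and -0.03 with quantile normalization.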
